A study of Rattus norvegicus with 7 samples.

Results

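The 10 genes described here belong to the unfolded protein response, the programme by which a cell answers a build-up of unfolded protein in the endoplasmic reticulum (ER). They were taken by symbol from a fixed list of Hspa5, Hsp90b1, Dnajb9, Sdf2l1, Pdia4, Herpud1, Xbp1, Atf4, Ddit3 and Trib3. The rule names the genes and sets no threshold on a measured value, but the list was drawn up with earlier results of these data known. All 10 were found among the 17246 genes read from the deposited tables. Their transcripts were counted in RNA sequencing libraries of rat meibomian glands, which lie in the eyelid and whose cells fill with lipid and burst to release it onto the tear film. The control group held 4 libraries from untreated glands. The UVB group held 3 libraries from glands of animals whose shaved upper lids received ultraviolet B light at 300 mJ/cm2 in a session of 5 min on each of 5 days. All animals were wild-type female Sprague-Dawley rats aged 3 months, and each library came from a gland dissected from the lid and snap frozen, so it holds every cell type of that piece of tissue. Whether control lids were shaved, how long after the last exposure the glands were taken, and whether each library is a separate animal are not stated. The p-values therefore set each difference against the spread between these libraries, which may not be a spread between animals.

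In the unfolded protein response, 3 sensors in the ER membrane report on protein folding. ATF6 is cut to release a transcription factor, IRE1 (encoded by Ern1) splices the Xbp1 transcript so that it encodes an active factor, and PERK (encoded by Eif2ak3) phosphorylates the translation factor eIF2alpha, which slows protein synthesis while favouring translation of Atf4. The targets of the ATF6 and XBP1 arms include ER chaperones and parts of the degradation machinery, and those of the ATF4 arm include Ddit3, which encodes CHOP, and Trib3. Because splicing of Xbp1, translation of Atf4 and cleavage of ATF6 happen after transcription, counts per gene do not measure them.

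The libraries held between 20680237 and 28784941 counts, and differences were tested over 13709 genes with edgeR's quasi-likelihood test. Levels of a gene are given as CPM (read counts relative to library size, with TMM factors), and levels per length as the deposited TPM values. Markers of the lipid-filled meibocyte fitted the labelled tissue: their 18 genes summed to between 48516 and 58741 TPM in the controls and between 44503 and 51160 TPM after UVB, and of 17 tested 4 fell and 1 rose. Most of that sum was Scd (27692 TPM in the controls and 27033 TPM after UVB), which was not called, and Awat2 (11610 and 7380 TPM), which fell. Of all tested genes, 13.0% were called. Among markers of other cell types, the called genes were 4 of 9 macrophage genes, 3 of 7 mast cell genes, 3 of 7 endothelial genes, 2 of 9 keratinocyte genes and 2 of 3 neutrophil genes, all higher, and of 9 fibroblast genes 4 higher and 1 lower. Plasma cells (1 of 7, lower) and skeletal muscle (1 of 8, lower) were near that share, and 1 of 5 goblet cell and 1 of 3 serous acinus genes were called higher. The part of these cell types in the results below was not tested, and in whole tissue fewer cells of a type and less RNA per cell cannot be told apart.

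After UVB, Ddit3, Trib3 and Dnajb9 fell, while the other 7 genes passed the threshold in neither direction. The count of 3 called members became 2 without control a, control d or UVB c, 1 without control c, and 0 without control b, UVB a or UVB b. Without control a the 2 were Ddit3, lower, and Sdf2l1, higher. The count was 0 in the TPM fit to every gene. At an unadjusted p under 0.05, 2 members were higher and 3 lower in edgeR. Over all 13709 tested genes, 1921 were higher and 2129 lower at that threshold, the background for every unadjusted count below. DESeq2 called 1 member higher and 3 lower, and its calls over all genes are not given here. The 13.0% of all tested genes called were made up of 6.30% higher and 6.74% lower. The median log2 fold change of the 10 genes was 0.01, beside -0.0058 over all tested genes. In 5 of the 10 genes the groups did not overlap, 3 of them lower and 2 higher (Sdf2l1 and Pdia4) after UVB; the groups did not overlap for 26.6% of all tested genes (12.8% higher and 13.8% lower). The transcripts of the 10 genes together summed to between 1091 and 1223 TPM in the controls and to between 1108 and 1210 TPM after UVB, so the totals of the groups overlapped.

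**Figure D1:**
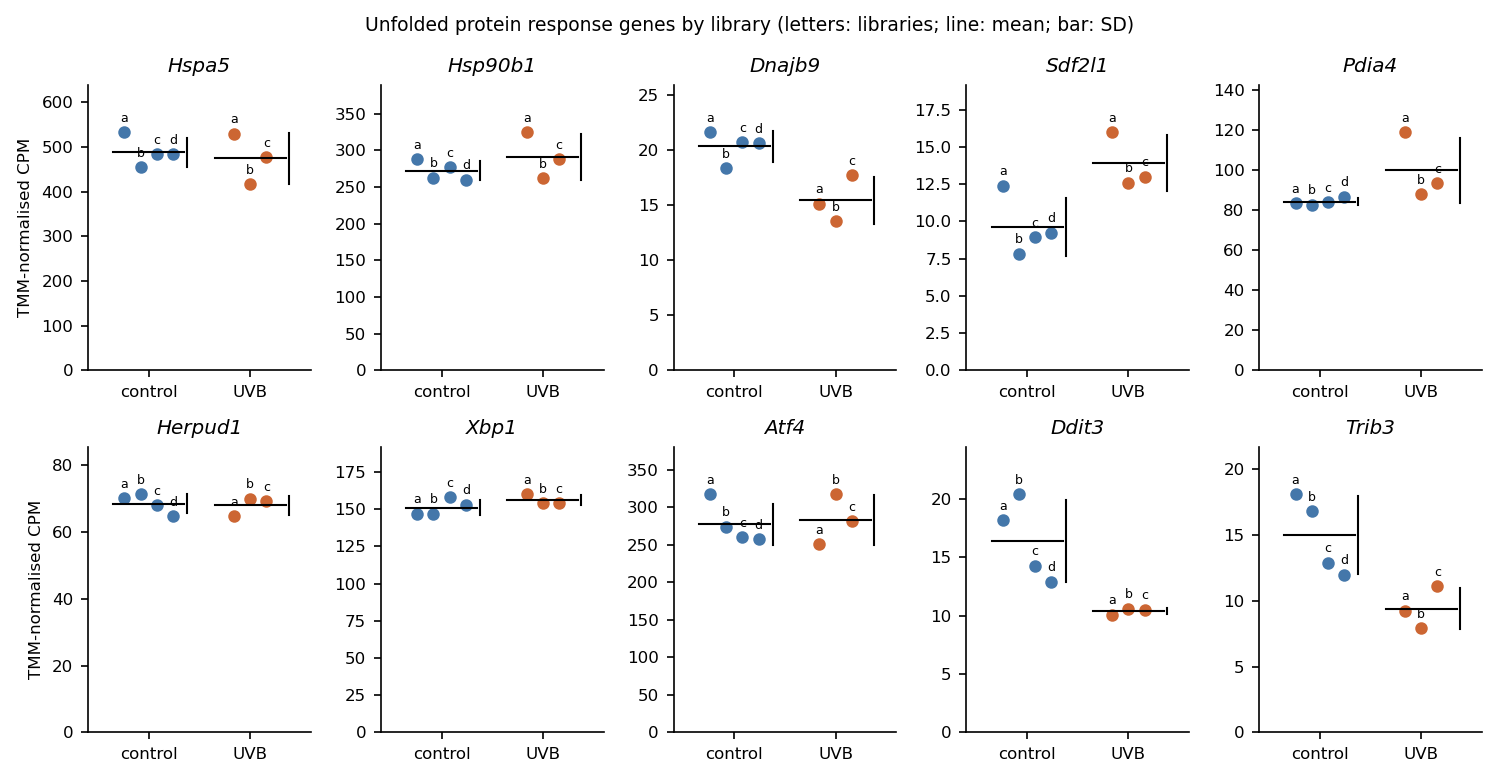
Level of each gene in every library as TMM-normalised CPM (vertical axes start at 0), in 4 control libraries (blue, a to d) and 3 UVB libraries (orange, a to c); lines are means and side bars are SDs. The UVB points lie below every control point for Dnajb9, Ddit3 and Trib3 and above every control point for Sdf2l1 and Pdia4.

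Per length, the genes spanned a wide range of abundance in the untreated gland. Atf4 (333 ± 30.6 TPM, SD, n = 4) and the chaperone gene Hspa5 (317 ± 20.1 TPM) were the most abundant of the 10 and overlapped each other, at ranks 379 and 400 among the tested genes. Xbp1 (161 ± 7.37 TPM), Hsp90b1 (144 ± 7.49 TPM) and Pdia4 (59.3 ± 1.81 TPM) followed, each apart from its neighbours in the controls. Herpud1 (47.0 ± 2.25 TPM) overlapped Ddit3 (38.7 ± 7.63 TPM), and at the low end Sdf2l1 (16.9 ± 3.31 TPM) overlapped Trib3 (14.0 ± 2.65 TPM), which overlapped Dnajb9 (11.8 ± 0.817 TPM). After UVB the order of means was the same for the first 8 genes, while Dnajb9 (9.03 ± 1.29 TPM, SD, n = 3) and Trib3 (8.84 ± 1.55 TPM) changed places with overlapping values. After UVB, Ddit3 (25.4 ± 0.135 TPM) no longer overlapped Herpud1 (46.3 ± 1.72 TPM) and instead overlapped Sdf2l1 (24.6 ± 3.74 TPM).

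The spread within the controls also differed between members. Pdia4 varied least, with an SD of 2.04% of its mean CPM, followed by Xbp1 (3.44%) and Herpud1 (4.25%). Ddit3 (21.1%), Sdf2l1 (20.5%) and Trib3 (19.7%) varied most. Control a was the highest control for 6 of the 10 genes, and UVB b was the lowest UVB library for 7 of them, so several members shared high and low libraries.

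The promoters of several members carry the sequence elements for which this pathway is known, and those stretches are shown to set beside the values which members hold which element. The ER stress response element (ERSE) was searched as CCAAT, any 9 bases and CCACG, ERSE-II as ATTGG, any 1 base and CCACG, and the core of the amino acid response element, which ATF4 binds with C/EBP partners, as TGATGNAA. Each was searched on both strands of the RefSeq promoter windows of GRCr8, from 250 bases before to 50 after the start of each gene, where all 10 members had a window. ERSE was found in Hspa5, Hsp90b1 and Xbp1, and in 0.0657% of the 33469 windows. ERSE-II was found in Herpud1 (0.0508% of windows). A shorter form, CCAAT, any 9 bases and CCA, which every ERSE contains, was found also in Herpud1 and Pdia4 (1.12% of windows), and TGATGNAA in Herpud1 and Trib3 (3.98%). The core TGACGTGG of the unfolded protein response element, which shares the letters CGTGG with the reverse strand of ERSE, was in no member's window (0.595% of windows). Capitals below mark the fixed letters of ERSE in Hspa5, Hsp90b1 and Xbp1, of ERSE-II and the shorter form in Herpud1, of the shorter form in Pdia4 and of TGATGNAA in Trib3, all written 5′ to 3′ along the gene.
Hspa5, GRCr8 chr3:38452916-38453015, plus strand: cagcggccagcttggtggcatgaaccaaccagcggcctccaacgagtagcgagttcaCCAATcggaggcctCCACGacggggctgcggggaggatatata
Hsp90b1, GRCr8 chr7:23012334-23012483, minus strand: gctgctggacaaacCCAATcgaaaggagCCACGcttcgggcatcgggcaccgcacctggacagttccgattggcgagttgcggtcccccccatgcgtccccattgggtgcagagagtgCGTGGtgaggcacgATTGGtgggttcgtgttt
Xbp1, GRCr8 chr14:84604523-84604622, plus strand: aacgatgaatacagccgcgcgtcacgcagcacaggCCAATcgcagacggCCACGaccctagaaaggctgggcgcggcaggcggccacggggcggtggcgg
Herpud1, GRCr8 chr19:10614758-10614857, minus strand: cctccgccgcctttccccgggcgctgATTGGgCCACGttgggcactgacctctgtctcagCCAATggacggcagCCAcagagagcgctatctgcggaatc
Pdia4, GRCr8 chr4:78153222-78153321, minus strand: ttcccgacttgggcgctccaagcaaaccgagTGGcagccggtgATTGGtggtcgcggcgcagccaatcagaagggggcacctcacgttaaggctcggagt
Trib3, GRCr8 chr3:161275534-161275593, minus strand: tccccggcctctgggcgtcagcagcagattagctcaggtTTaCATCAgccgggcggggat

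Among the chaperones of the 10 genes, Hspa5 and Hsp90b1, the most abundant of them, showed no difference larger than the spread between libraries. Hspa5 (NCBI gene 25617) encodes BiP, the Hsp70 chaperone of the ER lumen that also binds the sensors. It measured 533, 454, 483 and 484 CPM in controls a to d and 529, 416 and 477 CPM in UVB a to c. UVB b was the lowest of all 7 libraries and UVB a lay within the control range, so the groups overlapped. The log2 fold change of Hspa5 was -0.043 (SE 0.092, 95% interval -0.25 to 0.16, edgeR adjusted p = 0.795), an interval from 84.1% to 112% of the control level. Hsp90b1 (NCBI gene 362862), which encodes GRP94, the Hsp90 of the ER, measured 288, 263, 277 and 260 CPM in the controls and 325, 262 and 288 CPM after UVB. Only UVB a lay above every control, and the log2 fold change of 0.10 (SE 0.081, 95% interval -0.082 to 0.28) did not pass (edgeR adjusted p = 0.450). Without UVB a it was 0.014.

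Sdf2l1 and Pdia4 were higher in every UVB library than in every control, without passing the threshold. Sdf2l1 (NCBI gene 680945) encodes a lumenal protein that works with BiP and its co-chaperones. It measured 12.4, 7.84, 8.93 and 9.23 CPM in the controls and 16.0, 12.6 and 13.0 CPM after UVB. Control a stood close to UVB b, while the other 3 controls were lower. The log2 fold change was 0.53 (SE 0.163, 95% interval 0.16 to 0.89, not adjusted for the number of genes), or 144% of the control level, with an edgeR adjusted p of 0.0621. Over the 13 alternative analyses its log2 fold change ran from 0.41 to 0.68 and its adjusted p from 0.0166 to 0.173, and it passed in 2 of them, DESeq2 and the fit without control a (0.68, adjusted p = 0.0166).

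Pdia4 (NCBI gene 116598), a disulfide isomerase of the ER, measured 83.6, 82.8, 83.9 and 86.8 CPM in the controls and 119, 88.0 and 93.6 CPM after UVB. The controls lay close together, and UVB a stood far above the other libraries. Its log2 fold change was 0.25 (SE 0.095, 95% interval 0.034 to 0.46, edgeR adjusted p = 0.118). The value rested in large part on UVB a, without which it was 0.11 (adjusted p = 0.306), and no alternative called the gene.

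Dnajb9 was the member of the folding group that fell. It encodes ERdj4 (NCBI gene 24908), a J-domain co-chaperone of BiP that takes part in degradation of misfolded protein and in repression of IRE1. It measured 21.6, 18.3, 20.7 and 20.6 CPM in the controls and 15.1, 13.5 and 17.7 CPM after UVB. Every UVB library was below every control, with UVB c next to control b. Its level after UVB was 76.1% of the control level, a log2 fold change of -0.39 (SE 0.109, 95% interval -0.64 to -0.15, edgeR adjusted p = 0.0436). The direction was the same in 13 of 13 alternatives, but the call was kept in 4 of them and lost in 9, with adjusted p-values up to 0.134. It was lost on leaving out UVB a (0.0996), UVB b (0.134) or any control (a 0.0763, b 0.0521, c 0.103, d 0.104), and in the 3 fits on TPM (0.0589 to 0.0765). Dnajb9 overlaps LOC120103526 in the rat assembly GRCr8, and its counts are uncertain to that extent because no source used here says whether counting used strand.

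Herpud1 (NCBI gene 85430), which encodes a membrane protein of the ER degradation complex, did not differ beyond its spread. It measured 70.1, 71.2, 67.9 and 64.6 CPM in the controls and 64.7, 69.9 and 69.2 CPM after UVB, with all UVB values inside the control range. Its log2 fold change was -0.011 (SE 0.061, 95% interval -0.15 to 0.13, edgeR adjusted p = 0.930), an interval from 90.3% to 109% of the control level. Herpud1 overlaps LOC102553339 in GRCr8.

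**Figure D2:**
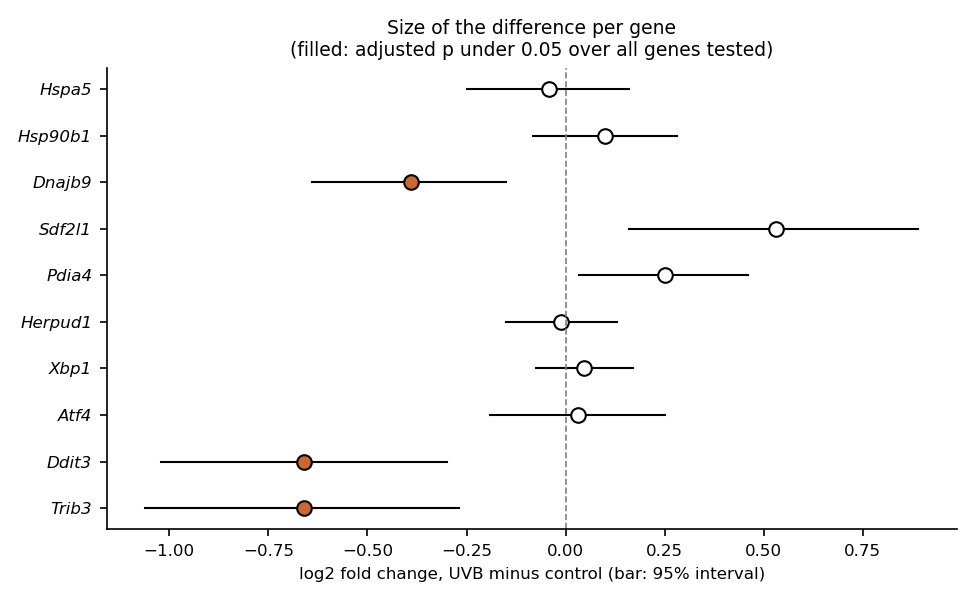
Log2 fold change of each gene, UVB minus control (horizontal axis), with its 95% interval, which is not adjusted for the number of genes; filled points have an edgeR adjusted p under 0.05. Dnajb9, Ddit3 and Trib3 lie below 0, the intervals of Sdf2l1 and Pdia4 lie above 0 without a call, and those of the other 5 genes include 0.

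The transcription factor genes Xbp1 and Atf4, which act at the head of their arms, showed no call. Xbp1 (NCBI gene 289754) measured 147, 147, 158 and 153 CPM in the controls and 160, 154 and 154 CPM after UVB. Only UVB a lay above every control. The log2 fold change was 0.046 (SE 0.054, 95% interval -0.075 to 0.17, edgeR adjusted p = 0.613), an interval from 94.9% to 112% of the control level, and these values count spliced and unspliced Xbp1 together. Atf4 (NCBI gene 79255), which encodes a bZIP factor of the integrated stress response, measured 317, 274, 260 and 257 CPM in the controls and 251, 317 and 281 CPM after UVB. UVB a lay below every control and UVB b just above the highest, so the UVB libraries spanned the whole control range. The log2 fold change of Atf4 was 0.031 (SE 0.0991, 95% interval -0.19 to 0.25, edgeR adjusted p = 0.865).

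Ddit3 and Trib3, which lie downstream of ATF4, were lower after UVB. Ddit3 (NCBI gene 29467) encodes CHOP, a C/EBP-family factor linked to cell death under lasting ER stress. It measured 18.2, 20.4, 14.3 and 12.9 CPM in the controls and 10.1, 10.6 and 10.5 CPM after UVB. The 3 UVB libraries were nearly equal and all lay below the lowest control, whereas the controls ranged widely, with a and b above c and d. The level after UVB was 63.3% of the control level, a log2 fold change of -0.66 (SE 0.159, 95% interval -1.02 to -0.30, edgeR adjusted p = 0.0276). Ddit3 was called in 8 of the 13 alternatives, with an adjusted p of at most 0.0720 over all of them. It missed the threshold without control b (0.0536), UVB a (0.0717), UVB b (0.0720) or UVB c (0.0683), and in the TPM fit to every gene (0.0512).

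Ddit3 overlaps LOC134479709 and Mars1, the methionyl-tRNA synthetase gene, in GRCr8. Reads in the stretches they share cannot be told apart unless counting used strand. Counts of Ddit3 and of Mars1 were whole in every library. Mars1 measured 98.8 CPM on average in the controls and 116 CPM after UVB (log2 fold change 0.23, edgeR adjusted p = 0.132), a difference in the other direction from Ddit3. Whether shared reads had a part in either difference was not tested.

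Trib3 (NCBI gene 246273) encodes a pseudokinase that is induced by ATF4 and CHOP. It measured 18.1, 16.8, 12.9 and 12.0 CPM in the controls and 9.24, 7.94 and 11.1 CPM after UVB. As for Ddit3, controls a and b were above c and d, and every UVB library was below every control. Its level after UVB was 63.1% of the control level, with a log2 fold change of -0.66 (SE 0.175, 95% interval -1.06 to -0.27, edgeR adjusted p = 0.0368). Trib3 was called in 7 of the 13 alternatives and lower in all 13, with adjusted p-values up to 0.118. It missed the threshold without control a (0.0625), control b (0.0860), control c (0.0567), UVB a (0.0930) or UVB b (0.118), and in the TPM fit to every gene (0.0661).

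**Figure D3:**
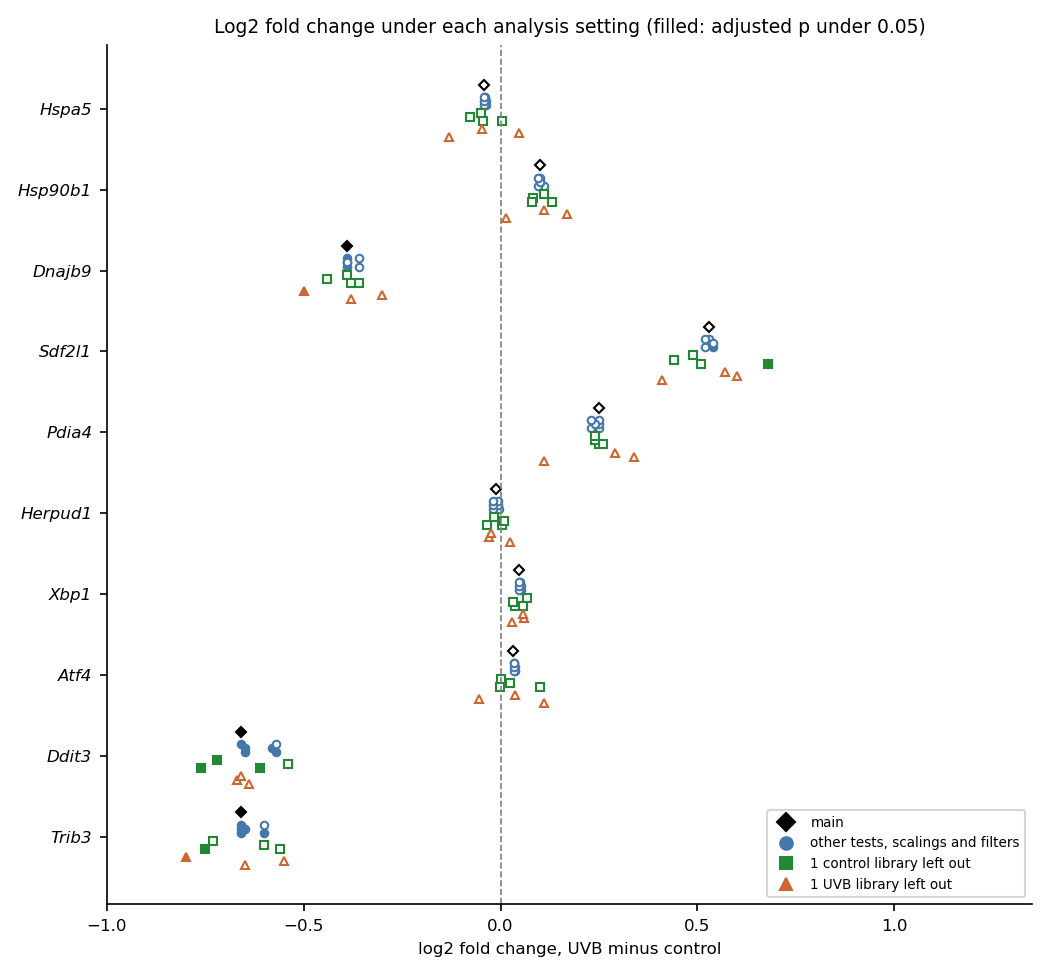
Log2 fold change of each gene (horizontal axis) in the fit reported here (diamonds) and in 13 alternatives: other tests, scalings and filters (circles), 1 control library left out (squares) and 1 UVB library left out (triangles), with filled symbols for an adjusted p under 0.05. Dnajb9, Ddit3 and Trib3 lie below 0 and Sdf2l1 and Pdia4 above 0 in every setting, while calls come and go with single libraries.

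In the promoter stretches printed above, the ERSE of Hspa5 lies 43 to 25 bases before the start of the gene, and Hsp90b1 holds one on each strand. None of the 4 members with an exact ERSE or ERSE-II passed the threshold in either direction. Of the 3 members that fell, Trib3 held TGATGNAA on the reverse strand, and Ddit3 and Dnajb9 held none of the 5 letter patterns in this window. Over the whole data set, 16 tested genes had an exact ERSE in a window. Of the 13 that are not members, 3 rose (Birc5, Canx and Dnajc3, named after their values were seen) and 0 fell by edgeR (0 lower at an unadjusted p under 0.05), with a median log2 fold change of 0.085, where 6.30% of all tested genes rose. Of the 10 other tested genes with ERSE-II, 2 rose (Nucb1 and Rcl1, also named after their values were seen) and 0 fell by edgeR (1 lower at an unadjusted p under 0.05), with a median of 0.12. The commoner patterns had calls in both directions: 11 of 132 other tested genes rose and 6 fell for the shorter form of ERSE (median 0.032), 6 of 96 rose and 4 fell for TGACGTGG (median 0.049), and 26 of 240 rose and 16 fell for TGATGNAA (median 0.0093). A match describes the letters alone.

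Among the sensors, Ern1 was lower after UVB and no other gene of that list passed. Ern1 encodes IRE1, the kinase and endonuclease that splices Xbp1, and it fell from 23.8 CPM (21.2 to 25.6, n = 4) to 17.3 CPM (14.9 to 19.7, n = 3), with a log2 difference of -0.46 (SE 0.110, edgeR adjusted p = 0.0273). It was called in 8 of 13 alternatives, with an adjusted p of at most 0.0753, and overlaps Rps10-ps6 in GRCr8. Atf6 measured 78.7 ± 9.27 CPM in the controls and 63.8 ± 5.42 CPM after UVB (SD, n = 4 and 3), a log2 fold change of -0.30 that did not pass (SE 0.0985, edgeR adjusted p = 0.0722); it overlaps LOC100911728 and LOC120096368 in GRCr8. Eif2ak3, the gene of PERK, measured 46.1 CPM (43.2 to 49.4) and 43.6 CPM (42.1 to 44.8), with a log2 fold change of -0.08 (edgeR, SE 0.066, adjusted p = 0.455). Of the 9 sensors and activators tested, 1 fell and 0 rose by edgeR and by DESeq2 (2 lower and 0 higher at an unadjusted p under 0.05 in edgeR), and the median log2 fold change was -0.0023. That is 11.1% called, near the 13.0% of all tested genes. The count was 0 without control b, control c, UVB a or UVB c, and 2 without control d. The eIF2alpha kinase and phosphatase list had 0 of 7 genes called by edgeR (1 higher and 0 lower at an unadjusted p under 0.05). Its smallest p belonged to Eif2ak4, which encodes the amino acid sensor GCN2 (log2 fold change 0.33, edgeR adjusted p = 0.0654). DESeq2 called 1 gene of that list. The 7 genes leave out Eif2ak3, given above, and Ppp1r15a, the gene of GADD34, which was listed with the ATF4 and CHOP targets. Ppp1r15a, described below, fell (log2 fold change -0.68, edgeR adjusted p = 0.00409).

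Of the calls among other ER chaperones and folding enzymes, most were higher after UVB. Of 24 tested, 5 rose and 1 fell (25.0% called, against 13.0% of all tested genes). A log2 fold change above 0 was seen in 19 of the 24 and in 6730 of all 13709 tested genes. The median was 0.094, beside -0.0058 over all tested genes. The disulfide isomerase gene Pdia6 rose from 173 CPM (153 to 185, n = 4) to 223 CPM (213 to 239, n = 3), an increase of 0.37 on the log2 scale (SE 0.078, edgeR adjusted p = 0.0179). Ppib, the ER cyclophilin gene, rose from 165 CPM to 192 CPM (0.22, SE 0.052, edgeR adjusted p = 0.0267), but it overlaps Snx22 in GRCr8. The other 3 that rose, named after their values were seen, were the lectin chaperone gene Canx (0.31), P4hb (0.23) and Dnajc3 (0.30); Canx overlaps LOC120095092 and Dnajc3 overlaps S100a10-ps1. The gene that fell was Ero1a, an oxidase that recharges disulfide isomerases, from 147 CPM (129 to 162) to 92.8 CPM (79.6 to 102), with a log2 difference of -0.67 (SE 0.102, edgeR adjusted p = 0.00608). Ero1a was called in 13 of 13 alternatives; it overlaps Rps10l6 in GRCr8. The 6 calls of this list became 9 without control a, 3 without UVB a, 2 on leaving out control b or d or UVB b or c, and 1 without control c.

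With both directions counted, degradation and transport genes were called at about the share of all tested genes (13.0%), but the transport calls were all higher. In ER-associated degradation, 2 of 23 rose and 1 fell (13.0% called), with a median log2 fold change of 0.036. Edem2, which encodes a mannose-trimming protein of that route, rose from 56.0 CPM (54.3 to 57.6) to 72.8 CPM (67.4 to 79.6), by 0.38 on the log2 scale (SE 0.069, edgeR adjusted p = 0.0104), and was called in 13 of 13 alternatives. The ubiquitin ligase gene Syvn1 rose by 0.21 (SE 0.053, adjusted p = 0.0303) and the lectin gene Erlec1 fell, with a log2 fold change of -0.26 (SE 0.068, adjusted p = 0.0346); the calls of Syvn1 and Erlec1 held in 7 and 4 of 13 alternatives, and they overlap Mrpl49 and Asb3 in GRCr8. This list had 1 call in 6 of the 7 fits that left out a library, all except the one without control a. For translocation into the ER and COPII transport, 3 of 24 rose and 0 fell by edgeR (12.5% called; 6 higher and 0 lower at an unadjusted p under 0.05; 4 and 0 by DESeq2), with a median of 0.087 and 1 call on leaving out control b, c or d or UVB a or c. These were the signal peptidase gene Sec11c (0.43, SE 0.074, edgeR adjusted p = 0.00871), the translocon gene Sec61b (0.26, adjusted p = 0.0253) and the coat gene Sec24d (0.37, adjusted p = 0.0346), whose counts were not whole in 3 libraries. Sec11c measured 31.9 CPM (28.8 to 34.0) in the controls and 42.9 CPM (42.6 to 43.3) after UVB, and it alone of the 3 was called in 13 of 13 alternatives. Of all tested genes, 6.30% were called higher. In the transport list, 19 of 24 log2 fold changes were above 0, beside 6730 of all 13709 tested genes. The groups did not overlap for 8 of its genes, all higher after UVB, beside 12.8% of all tested genes higher without overlap.

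Other targets of ATF4 and CHOP moved in both directions. Of 25 tested, 3 rose and 4 fell (28.0% called, against 13.0% of all tested genes), with a median log2 fold change of 0.15. Nupr1, which encodes a small stress-induced chromatin protein, fell most, from 72.4 CPM (59.5 to 92.4, n = 4) to 25.4 CPM (22.8 to 27.9, n = 3), with a log2 difference of -1.52 (SE 0.168, edgeR adjusted p = 0.00300). Ppp1r15a, the gene of GADD34, which directs the removal of phosphate from eIF2alpha, fell from 42.9 CPM (37.3 to 49.0) to 26.8 CPM (26.0 to 27.4), with a log2 fold change of -0.68 (edgeR, SE 0.093, adjusted p = 0.00409). Counts of Nupr1 and Ppp1r15a were not whole in any of the 7 libraries, as happens where an estimate divides reads between genes, and their levels are uncertain. Shmt2, a mitochondrial enzyme gene of serine and glycine metabolism, rose from 46.8 CPM (43.7 to 54.1) to 68.9 CPM (64.4 to 73.7), by 0.56 (SE 0.087, edgeR adjusted p = 0.00637), and overlaps Ndufa4l2 in GRCr8. The remaining calls, named after their values were seen, were rises of Psat1 (1.00) and Slc7a1 (0.52) and falls of Vldlr (-0.75) and Pycr1 (-0.57); Vldlr overlaps LOC134485215 and Pycr1 overlaps Myadml2.

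**Figure D4:**
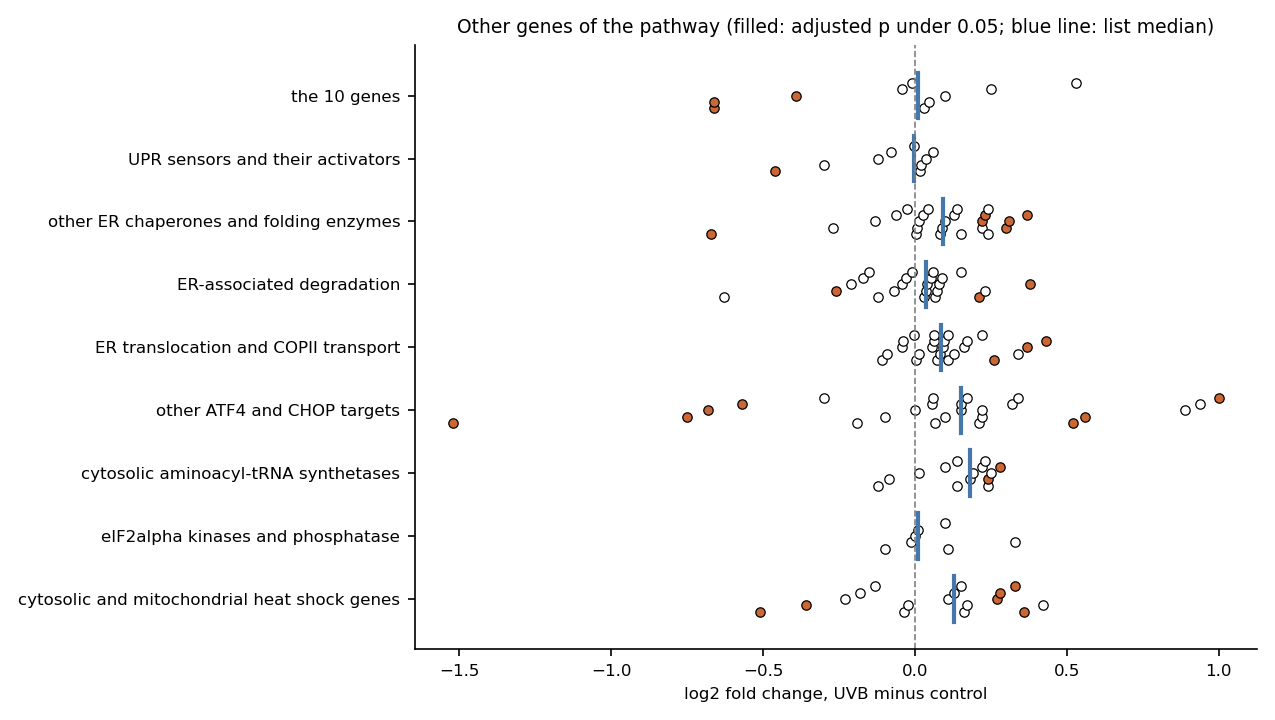
Log2 fold change of every tested gene (UVB minus control, horizontal axis) in the 10 genes and in 8 other lists of the pathway; filled points have an edgeR adjusted p under 0.05, and blue lines are list medians. The ATF4 and CHOP targets spread from -1.52 to 1.00, while the 24 other ER chaperones lie mostly above 0, with Ero1a at -0.67.

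Aminoacyl-tRNA synthetase genes, many of which ATF4 induces, had 12 of 14 log2 fold changes above 0 (6730 of 13709 over all tested genes) and a median of 0.18. There were 2 calls (14.3%, against 13.0% of all tested genes), both higher, Iars1 (0.28, SE 0.061, edgeR adjusted p = 0.0188) and Farsb (0.24, SE 0.063, adjusted p = 0.0361). At an unadjusted p under 0.05, 8 were higher and 0 lower in edgeR, beside 1921 higher and 2129 lower of all 13709 tested genes. Iars1 overlaps LOC120097976 and LOC120098012. The count of 2 calls by adjusted p depended on single libraries: it was 7 without control a, 1 without control b or UVB a, and 0 on leaving out control c or d or UVB b or c. Among cytosolic and mitochondrial heat shock genes, 4 of 17 rose and 2 fell (35.3% called, against 13.0% of all tested genes), with a median of 0.13. Hspb8, a small heat shock protein gene, fell from 246 CPM (238 to 254) to 172 CPM (164 to 176), with a log2 difference of -0.51 (SE 0.06, edgeR adjusted p = 0.00234), and the co-chaperone gene Dnaja1 rose from 66.9 CPM (64.0 to 69.9) to 86.1 CPM (85.2 to 87.3), by 0.36 (SE 0.055, edgeR adjusted p = 0.00598). Both were called in 13 of 13 alternatives, and Dnaja1 overlaps Mir207. Hspd1, the mitochondrial chaperonin gene, rose by 0.33 (SE 0.08, adjusted p = 0.0280), with counts that were not whole in any library and an overlap with Hspe1. The other 3 calls of this list, named after their values were seen, were Dnajb1 (0.27) and Hspe1 (0.28), higher, and Dnajb4 (-0.36), lower. The list had 2 calls on leaving out control b, control c or UVB a, 3 without control d or UVB b, and 4 without UVB c.

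Over all 8 lists, 19 of 143 tested genes rose and 9 fell, beside 6.30% of all tested genes called higher and 6.74% called lower. Markers of plasma cells, which use the unfolded protein response to secrete antibody, were scarce: Mzb1, Tnfrsf17 and Pou2af1 had at most 3 counts in every library, and the 10 markers summed to between 23.0 and 26.5 TPM in the controls and between 18.1 and 23.7 TPM after UVB. Most of that sum was a single gene, Prdm1 (17.2 TPM in the controls and 12.5 TPM after UVB). Prdm1 was the only called gene of the list, and the other 6 tested were not called. Macrophage markers summed to between 177 and 499 TPM in the controls and between 207 and 348 TPM after UVB, and fibroblast markers to between 1068 and 1595 TPM and between 1348 and 2110 TPM, so neither sum separated the groups. Much of these sums in the controls was Lyz2 (164 TPM) for macrophages and Col1a1 (491 TPM) and Col3a1 (394 TPM) for fibroblasts, none of them called. Single genes did differ: 4 of 9 macrophage genes were called higher and 0 lower, and 4 of 9 fibroblast genes higher and 1 lower. Endothelial markers (64.9 to 82.3 TPM against 87.9 to 99.9 TPM) summed higher in every UVB library than in every control. So did mast cell markers (39.7 to 49.5 TPM after UVB, with Mcpt1 at 0 in every library), serous acinus markers (9.78 to 12.6 TPM after UVB, with Oprpn, Ltf and Scgb2a1 at most at 3 counts) and the neutrophil markers (1579 to 1776 TPM against 1840 to 2115 TPM), of which Elane, Ngp, Camp and Ltf had at most 3 counts in every library. Nearly all of the neutrophil sum was S100a8 (1354 TPM in the controls) and S100a9 (336 TPM), genes that epithelium also expresses, while Csf3r measured 0.120 TPM in the controls and 1.12 TPM after UVB. The sums overlapped for keratinocyte markers (14488 to 17705 TPM against 17012 to 19604 TPM) and skeletal muscle markers (2598 to 3743 TPM against 1726 to 3180 TPM). They overlapped also for the goblet cell list (3943 to 5347 TPM against 4859 to 6356 TPM), but nearly all of that sum was the surface keratins Krt4 (1180 TPM in the controls) and Krt13 (3597 TPM). Its secretory markers were scarce: Muc5b measured 0.055 TPM in the controls and 0.277 TPM after UVB, and Agr2 1.28 and 5.09 TPM, both without overlap between the groups, and Spdef 0.715 and 1.42 TPM.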

How the data were processed

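RNA sequencing of dissected rat meibomian glands gave 4 control and 3 UVB libraries. Per the submitters' processing notes, FastQC, Trimmomatic, DRAGEN, Picard and the build rn7 were used, without roles or order; the annotation, and whether counting used strand, are not given in the sources used here. The authors deposited expected counts (estimated counts per gene, 12.5% of the values not whole) and TPM values, which over the genes read here sum to 82.0% to 84.1% of the total that TPM is scaled to. Commas inside gene names move cells in 2281 of 17251 rows; each row's last 7 cells were taken as its values, and 5 rows with a missing value were left out. The cell order was checked by the count to TPM ratio in 11951 genes (minimum 30 counts, 0.3 TPM): it was off by more than 1.5 times in 10, none of them a member or a gene of the lists. Column names give the group and no replicate number of the labels, so libraries have letters. Replicates differed by more than sampling noise (chi-square per degree of freedom at least 10.5).

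Expected counts were rounded and tested with edgeR 4.0.16 (R 4.3.3): filterByExpr, TMM, robust quasi-likelihood, Benjamini-Hochberg over all tested genes, threshold 0.05. The design treated each library as an independent unit. SE is the log2 fold change divided by the root of F, and 95% intervals use the moderated degrees of freedom. On simulated data for this comparison (13709 genes, 200 of them changed, each 2-fold), edgeR recovered 76.9% of the changed genes with 5.56% of its calls false. DESeq2 recovered 81.5% with 18.5% false, and limma on log2(TPM + 1) 81.2% with 17.9% false. The share of false calls depends on how many genes change and by how much, so these shares do not carry over to calls on the real data. Alternatives were DESeq2 1.42.0, DESeq2 size factors in edgeR, no low-count filter, limma 3.58.1 on log2(TPM + 1) or log2(TPM + 0.1) with a mean TPM of at least 1, log2(TPM + 1) for every gene above 0, and each library left out. The members and lists were chosen with earlier results of these data known. Of 153 other pathway symbols, 145 were found and 143 tested. Named genes are the 10 members, Ern1, Eif2ak3 and Atf6, and from each list the 3 smallest p-values past the threshold, or the smallest where none passed. Overlapping genes and promoter sequences come from RefSeq tables of GRCr8, matched by gene ID; since the deposited values rest on another build, coordinates are given only for those sequences.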

Additional observations from a re-analysis of the deposited data

Results flagged for a closer look

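Syvn1 had 1 control library set apart from the rest: control a measured 90.1 CPM and the remaining controls 86.5 to 87.0 CPM. That gap is 0.869 of the whole control range, above Dixon's critical value for 4 values. It was the only such case among 31 named genes, where chance gives about 1 in 20 (1.55 of 31). The UVB group, with 3 libraries, is too small for the comparison.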

How the results depend on the processing

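No paired analysis was possible because library names in the tables give a group and no replicate number found in the labels. Under log2(TPM + 1) for every gene above 0, 0 of the 10 genes and 0 sensors were called, 1 tRNA synthetase gene and 3 heat shock genes. Under DESeq2, 4 synthetase genes and 1 gene of the eIF2alpha list were called. On simulated data 18.5% of DESeq2 calls and 5.56% of edgeR calls were false, shares that do not carry over to these calls. The causes of the differences between settings were not tested. Across the 7 fits that each left out 1 library, calls ran from 0 to 2 for the 10 genes (0 without control b, UVB a or UVB b, and 1 without control c), 0 to 2 for sensors, 1 to 9 for ER chaperones, 1 to 3 for degradation, 1 to 4 for translocation and transport, 6 to 9 for ATF4 and CHOP targets, 0 to 7 for tRNA synthetases, 0 to 0 for the eIF2alpha list, 2 to 6 for heat shock genes and 851 to 1898 for all genes (lowest without control c; below the full count by over 1.5 times also without control b, control d, UVB b or UVB c). Fewer libraries leave less power by construction. The sign of 3 uncalled genes changed: Hspa5 (range -0.13 to 0.047 over these fits) was 0.0035 without control a and 0.047 without UVB b, Herpud1 (-0.034 to 0.024) was 0.0031 without control a, 0.0082 without control b and 0.024 without UVB a, and Atf4 (-0.054 to 0.11) was -0.00063 without control d and -0.054 without UVB b. Of 403 log2 fold changes over 31 named genes and 13 alternatives, 313 kept direction and side of the threshold, 79 lost the call, 4 gained it and 7 changed sign. The lowest count of any of the 10 genes in a library was 168 (Sdf2l1, control b).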

Other observations

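Ratios of 2 members within a library do not depend on how libraries are scaled; these pairs were chosen after the values were seen and are given without a test. The ratio of Sdf2l1 to Dnajb9 CPM was 0.576, 0.427, 0.432 and 0.449 in controls a to d and 1.06, 0.931 and 0.734 in UVB a to c. That of Ddit3 to Atf4 was between 0.0501 and 0.0746 in the controls and between 0.0334 and 0.0403 after UVB. That of Trib3 to Ddit3 overlapped between the groups, at 0.914 ± 0.0729 (SD, n = 4) and 0.907 ± 0.155 (SD, n = 3).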
